A study of Mus musculus with 3 samples.

Results

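The genes described here encode subunits of the oxidative phosphorylation complexes of the inner mitochondrial membrane. They were chosen by symbol alone: Nduf genes of the a, b, c, s and v series for complex I, Sdhb, Sdhc and Sdhd for complex II, the Uqcr genes for complex III, the Cox4i, Cox5, Cox6, Cox7 and Cox8 genes for complex IV and the Atp5 genes for complex V. Of 38976 probe rows on the array, 96 carried such a symbol. They belonged to 71 of the 15056 named genes: 41 probes of 28 genes in complex I, 5 of 3 in complex II, 9 of 8 in complex III, 22 of 16 in complex IV and 19 of 16 in complex V. All 96 had a value on each array, and no filter on low values was applied.

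The samples were mammary tumors of the mouse MMTV-PyMT model, in which a mammary tumor virus promoter drives the polyoma middle T oncogene in mammary epithelium. Primary carcinoma cultures without fluorescence were infected either with the PMIG retrovirus carrying full-length GATA-3, a transcription factor of the mammary luminal lineage, and an IRES-GFP cassette, or with the empty vector, and then grown for 6 weeks in cleared mammary fat pads of wild-type hosts. Each of 3 two-colour arrays set total RNA of a GATA-3 tumor (Cy5) against RNA of an empty-vector tumor (Cy3), so there was 1 group of 3 ratios and the empty-vector tumor is the background of every value. The sources used here do not give mouse strain or age, whether infected cells were sorted, or whether separate animals and separate control RNAs were used. The p-values therefore set a mean ratio only against the spread between the 3 arrays, with variance shared across probes. That spread may be technical.

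Every value below is the authors' deposited log ratio with each array's median set to 0, taken as log2 of GATA-3 tumor over empty-vector tumor. That direction is likely from the labels, but neither it nor the log base is stated, and a turned sign would swap every higher and lower. All arrays had 1 dye orientation, so an effect of a probe or of the dye cannot be told apart from a difference between the tumors. Higher and lower mean a mean ratio above or below 0 that passed limma's test at an adjusted p under 0.05 over all 38975 probes with 3 values. In RNA of whole tumors, fewer cells of a type and less RNA per cell cannot be told apart.

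Oxidative phosphorylation passes electrons from NADH through complex I and from succinate through complex II to ubiquinone, on through complex III and cytochrome c to complex IV, where oxygen is reduced. Complexes I, III and IV pump protons, and complex V, the ATP synthase, makes ATP from the resulting gradient. All subunits described here are encoded in the nucleus, and most are needed in fixed ratios within their complex. Mammary carcinoma cells use both this route and glycolysis for ATP.

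Most subunit probes passed the threshold, the larger part of them with ratios below 0. Of the 96 probes, 47 (49.0%) were lower in the GATA-3 tumors, against 25.9% of all probes tested. Another 25 (26.0%) were higher, against 31.4% of all probes, and 24 did not pass. Together 72 passed, against 57.3% of all probes. Of the 96, 85 kept 1 sign across the arrays, against 76.7% of all probes. The median of the 96 means was -0.36, with -0.56, -0.40 and -0.25 on arrays 1, 2 and 3, beside a median of -0.016 for the means of all probes. The means ran from -1.46 to 1.49, and the median size of a mean, whatever its sign, was 0.67, against 0.41 over all probes. By gene, 37 had lower probes and no higher ones, 17 had higher probes and no lower ones, 4 had both, and 13 had neither. Over all 15056 named genes, which also differ in their number of probes, these shares were 27.8%, 34.6%, 7.49% and 30.1%.

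**Figure D1:**
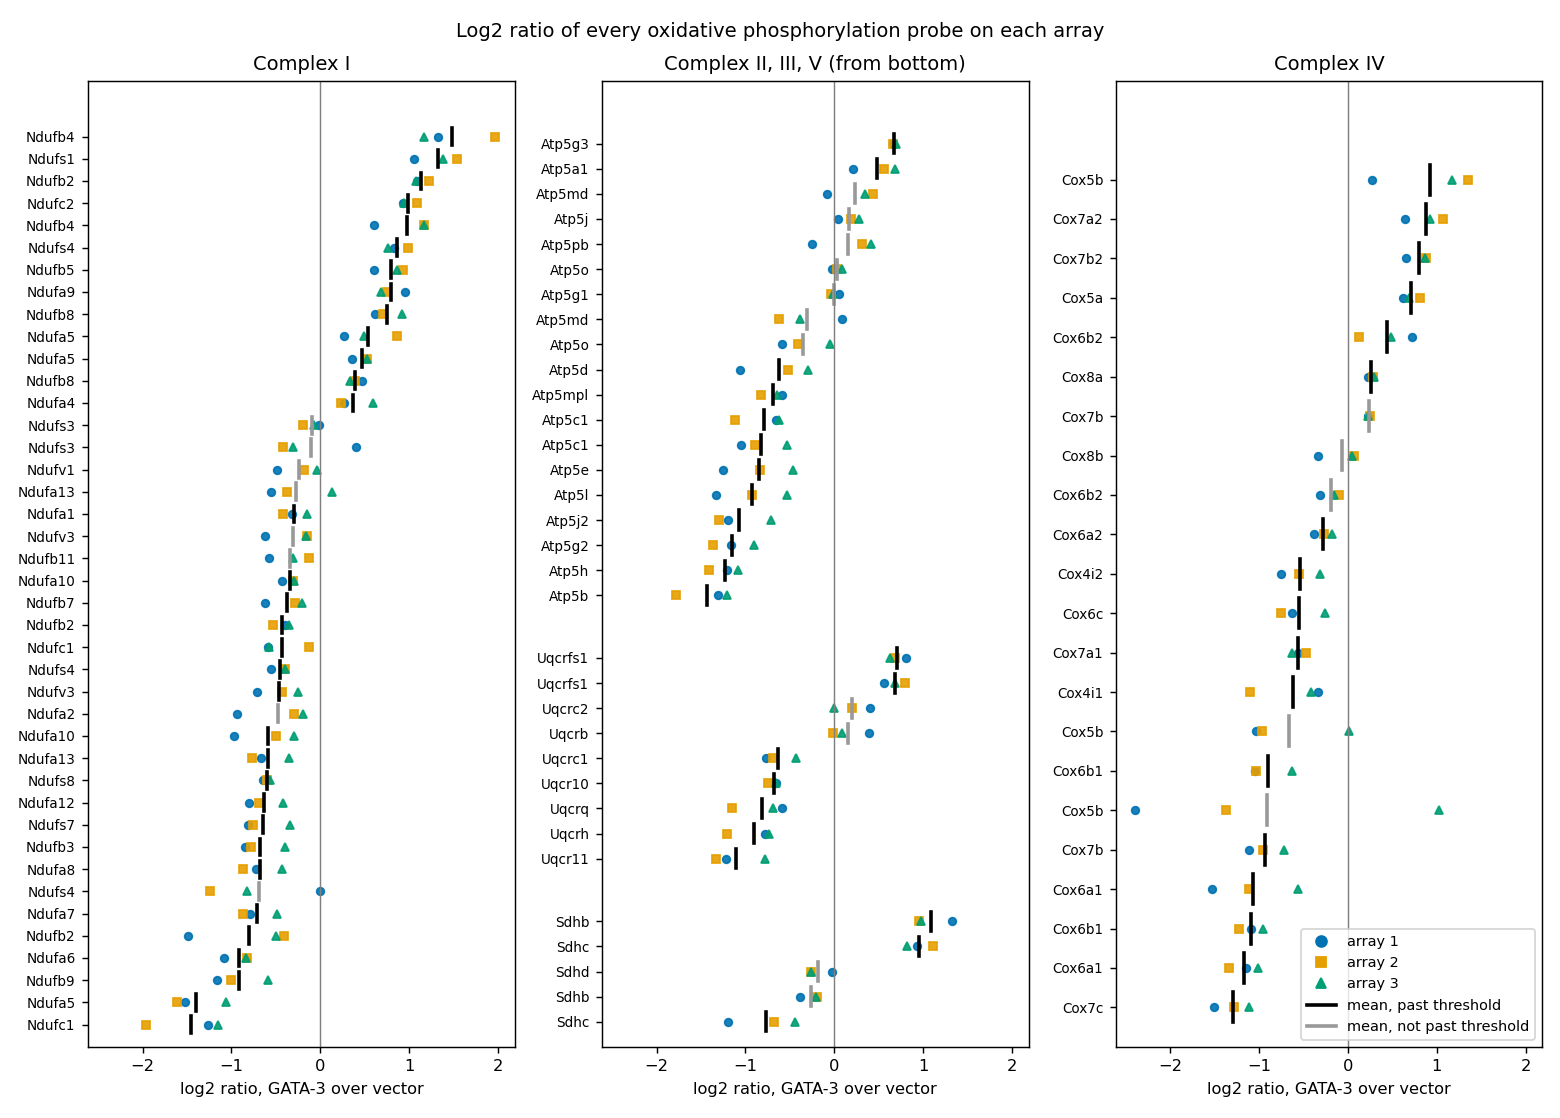
Log2 ratio of GATA-3 over empty-vector tumor (horizontal axis) for each of the 96 probes (1 line per probe, named by gene), with circles, squares and triangles for arrays 1, 2 and 3 and a bar for the mean, black where the probe passed the threshold. Within each complex at least 1 probe lies well above 0 on all 3 arrays and at least 1 well below it. The highest mean is that of a Ndufb4 probe at 1.49 and the lowest that of a Ndufc1 probe at -1.46.

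The arrays ordered the subunits in a similar way. Across the 96 probes, which are not independent replicates and share dyes, hybridization and perhaps control RNA, arrays 1 and 2 correlated with a Pearson's r of 0.88, arrays 1 and 3 with 0.79, and the last pair with 0.91. Over all probes these values were 0.77, 0.78 and 0.94. Array 1 gave the lowest of the 3 ratios for 55 of the 96 probes, and array 3 the highest for 55. The deposited title of array 1 carries another prefix than the titles of arrays 2 and 3. What the prefix stands for is not stated in the sources used here. The SD over arrays had a median of 0.22 for the subunit probes and 0.17 for all probes.

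Promoter sequences are shown for 4 genes at the ends of this range, to set genes with opposite ratios side by side. Atp5b, the catalytic beta subunit of ATP synthase, had the lowest ratio of any subunit gene with 1 probe (-1.43 ± 0.31, SD, n = 3). Cox6a1, a subunit of cytochrome c oxidase, had the lowest pair of probes that both passed (-1.17 and -1.07). Ndufb4, of the membrane arm of complex I, had the highest such pair (0.98 and 1.49). Ndufc2, of the same arm, had the highest ratio among genes with 1 probe and a sequence at hand (0.99 ± 0.090, SD, n = 3). The sequences are the 250 bases before the RefSeq start of each gene, 5′ to 3′ on the gene's strand, in build GRCm38.p6. They lie at chr10:128083057-128083306 on the plus strand (Atp5b), chr5:115348959-115349208 on the minus strand (Cox6a1), chr7:97399753-97400002 on the plus strand (Ndufc2) and chr16:37654369-37654618 on the minus strand (Ndufb4). Of 5 motifs searched on either strand, capitals mark those found here: the core of the site of NRF1 (GCATGCGC), an activator of respiratory chain genes; an ETS site (CCGGAAG), the kind bound by GABP, another such activator; and GATA sites (AGATAA or TGATAA, each with A or G as the last base).
Atp5b: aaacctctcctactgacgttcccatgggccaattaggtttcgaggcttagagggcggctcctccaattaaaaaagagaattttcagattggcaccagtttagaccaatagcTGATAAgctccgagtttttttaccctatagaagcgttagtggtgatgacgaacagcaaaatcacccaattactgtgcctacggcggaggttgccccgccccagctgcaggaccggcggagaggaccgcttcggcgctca
Cox6a1: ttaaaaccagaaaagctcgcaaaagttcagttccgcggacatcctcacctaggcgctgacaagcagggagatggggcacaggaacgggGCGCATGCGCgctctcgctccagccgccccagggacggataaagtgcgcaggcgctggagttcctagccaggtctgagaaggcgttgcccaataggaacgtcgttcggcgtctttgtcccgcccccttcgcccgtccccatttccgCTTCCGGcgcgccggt
Ndufc2: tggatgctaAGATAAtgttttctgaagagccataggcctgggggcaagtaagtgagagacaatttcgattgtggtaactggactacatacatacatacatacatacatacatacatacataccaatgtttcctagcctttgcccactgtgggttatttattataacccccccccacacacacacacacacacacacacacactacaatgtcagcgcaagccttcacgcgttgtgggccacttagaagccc
Ndufb4: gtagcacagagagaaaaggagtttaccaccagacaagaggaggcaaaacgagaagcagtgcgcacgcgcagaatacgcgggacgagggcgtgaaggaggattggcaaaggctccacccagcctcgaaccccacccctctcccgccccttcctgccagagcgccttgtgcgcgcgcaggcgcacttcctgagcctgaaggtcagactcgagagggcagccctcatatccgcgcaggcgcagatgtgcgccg

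The Cox6a1 sequence held the NRF1 core on both strands, in overlapping copies, and an ETS site, Atp5b and Ndufc2 each held 1 GATA site, and Ndufb4 held none of these letters. RefSeq promoters were at hand for 58 of the 71 genes. Among these the NRF1 core was present in 6 (10.3%), against 2.56% of all 27025 genes with a promoter and 3.83% of those on the array. The ETS site was present in 11 (19.0%), against 7.83% and 11.3%. A GATA site was present in 17 (29.3%), against 29.7% and 25.6%. The remaining motifs, in none of the 4 sequences, were the cyclic AMP response element (TGACGTCA), in 3 (5.17%) against 1.77% and 2.37%, and the TATA box (TATAAA), in 6 (10.3%) against 14.3% and 12.9%. No motif overlapped another in the 4 sequences apart from the paired NRF1 copies. Of the 30 matched genes with lower probes and no higher ones, 8 held the ETS site, 5 the NRF1 core and 9 a GATA site. Of the 15 with higher probes and no lower ones, 0 held the ETS site, 1 the NRF1 core and 5 a GATA site. These are matches of letters in a short window, given with no test.

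By complex, the share of lower probes was 20 of 41 in complex I, 1 of 5 in complex II, 5 of 9 in complex III, 11 of 22 in complex IV and 10 of 19 in complex V. These are 48.8%, 20%, 55.6%, 50% and 52.6%, against 25.9% of all probes. Higher probes numbered 13, 2, 2, 6 and 2 in the same order. These are 31.7%, 40%, 22.2%, 27.3% and 10.5%, against 31.4% of all probes. Median ratios were -0.63 for complex III, -0.62 for complex V, -0.55 for complex IV, -0.34 for complex I and -0.18 for complex II. The ranges of the complexes overlapped widely, and their differences were described and not tested.

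On each array complex III had the lowest median and complex V the next. Complex III gave -0.59, -0.69 and -0.43 on arrays 1, 2 and 3, and complex V gave -0.59, -0.62 and -0.39. These neighbours differed by less than the spread between arrays. Complex IV gave -0.48, -0.52 and -0.17, and complex I gave -0.56, -0.30 and -0.25. Their order was not the same on all arrays. Complex II, with only 5 probes, gave -0.028, -0.20 and -0.21, the highest median on arrays 1 and 2 but not on array 3, where complex IV was highest. The choice of members and the averaging of probes moved these values. Complex III stood at -0.24 when Cyc1, which the symbol rule leaves out, was added. Complex II turned to 0.093, and complex IV moved to -0.31, when probes were averaged per gene.

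**Figure D2:**
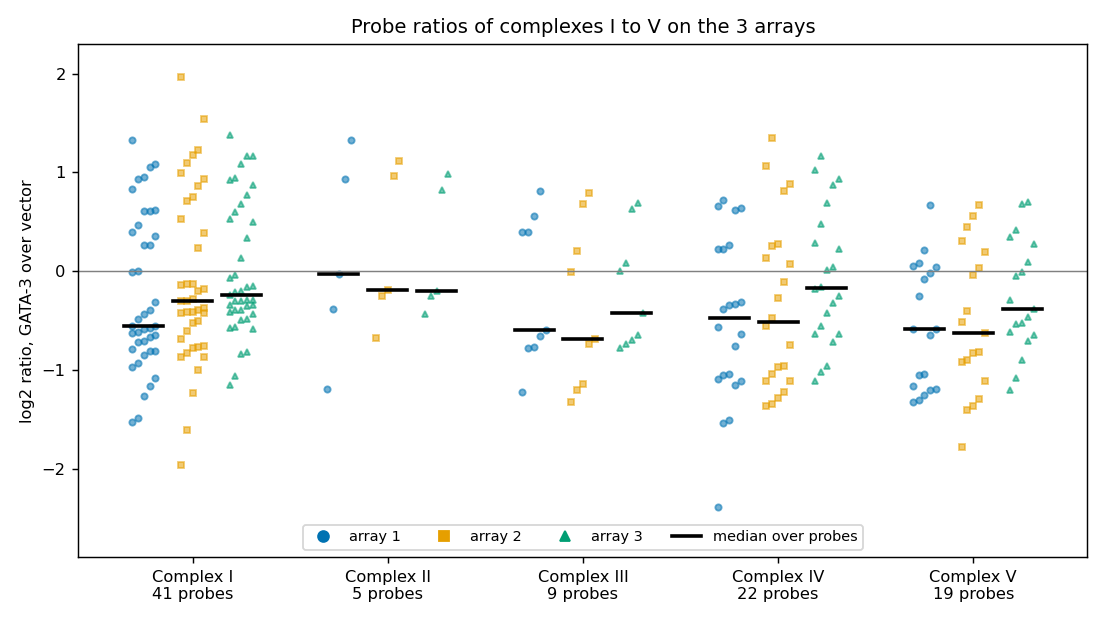
Log2 ratio of each probe (vertical axis) in complexes I to V, shown separately for arrays 1, 2 and 3 (circles, squares, triangles), with black bars for the median over probes. The medians lie at or below 0 in every complex on every array, from -0.69 for complex III on array 2 to -0.028 for complex II on array 1, while the probes of each complex spread to both sides.

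In complex I, the core subunits did not share a direction. Ndufs1, the largest iron-sulfur subunit, gave 1.06, 1.54 and 1.38 on arrays 1, 2 and 3. It was high on every array, with a mean of 1.33 ± 0.25 (SD, n = 3), a 2.51-fold difference (limma, adjusted p = 0.00319). Ndufs7, which holds the last cluster before ubiquinone, gave -0.81, -0.76 and -0.35 and was lower on all arrays (mean -0.64 ± 0.26, adjusted p = 0.0098). Ndufs8, another iron-sulfur subunit, gave -0.64, -0.60 and -0.56, nearly the same value on each array (mean -0.60 ± 0.041, adjusted p = 0.00411). The FMN-binding subunit Ndufv1, where NADH is oxidized, gave -0.49, -0.18 and -0.035 and did not pass (adjusted p = 0.137). Both probes of Ndufs3, a core subunit of the arm that meets the membrane, had means close to 0, at -0.11 and -0.093, and did not pass. The first gave 0.40, -0.42 and -0.30, with array 1 on the other side of 0, and passed without array 1 (adjusted p = 0.022). The second gave -0.01, -0.20 and -0.072.

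The accessory subunits of complex I held both extremes of the whole set. Ndufc1, a small membrane-arm subunit, gave -1.27, -1.96 and -1.15 on its lower probe, below -1 on every array (mean -1.46 ± 0.44, adjusted p = 0.00338). Its second probe, at -0.43 ± 0.26, was lower too but lost the call without array 1 (adjusted p = 0.0671) and without array 3 (0.181). Ndufb9 gave -1.16, -1.01 and -0.59 (mean -0.92 ± 0.30) and Ndufa6 -1.08, -0.83 and -0.84 (mean -0.92 ± 0.15). Both belong to the LYR family of small mitochondrial proteins, and both were lower on every array. Ndufa7, Ndufa8, Ndufb3 and Ndufa12 were also lower, with means from -0.72 to -0.64.

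On the other side stood several subunits, most of them of the membrane arm. The probes of Ndufb4 gave 1.33, 1.97 and 1.17 and 0.60, 1.17 and 1.16, above 0 on each array (adjusted p = 0.00325 and 0.00462). Ndufc2 gave 0.93, 1.10 and 0.95 (mean 0.99 ± 0.090), so that Ndufc1 and Ndufc2, which neighbour each other in the membrane arm, had opposite signs on all 3 arrays. Ndufb5 gave 0.61, 0.93 and 0.87 (mean 0.80 ± 0.17). Ndufa9, an accessory subunit near the ubiquinone site, gave 0.96, 0.75 and 0.68 (mean 0.80 ± 0.14). Both probes of Ndufb8 were higher, at 0.75 and 0.40, although the second lost the call without array 2 (adjusted p = 0.0606) and without array 3 (0.0847). Ndufa4, first described in complex I and now placed with complex IV, gave 0.26, 0.23 and 0.60, and its call too was lost without array 2 (0.0643) or array 3 (0.241).

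Ndufa10 had both probes lower, at -0.59 and -0.34, and the second lost its call without array 2 (0.0797) and array 3 (0.119). Ndufa13, also known as the cell-death regulator GRIM-19, had 1 probe lower (-0.59 ± 0.22) and 1 that did not pass (-0.27 ± 0.36). Ndufv3 had 1 probe lower at -0.46, a call lost without array 2 or array 3 (0.0618 and 0.0552), and 1 that did not pass (-0.31). Ndufb7 (-0.37) and Ndufa1 (-0.30) were lower, and neither passed in any fit on 2 arrays. Ndufa2 (-0.48 ± 0.40, adjusted p = 0.0554) and Ndufb11 (-0.34 ± 0.22, adjusted p = 0.0537) did not pass.

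Complex II, succinate dehydrogenase, links the tricarboxylic acid cycle to the chain. Its iron-sulfur subunit gene Sdhb gave 1.33, 0.96 and 0.98 on one probe (mean 1.09 ± 0.21, adjusted p = 0.00319) and -0.39, -0.20 and -0.21 on the other (mean -0.26 ± 0.11, adjusted p = 0.0554). The membrane anchor Sdhc gave 0.93, 1.12 and 0.82 on one probe and -1.20, -0.68 and -0.44 on the other, and both passed, with means of 0.96 ± 0.15 and -0.77 ± 0.39. For each of these genes the probes did not overlap on any array. The other anchor, Sdhd, gave -0.028, -0.26 and -0.26 on its single probe and did not pass (adjusted p = 0.156). Sdha, the flavoprotein subunit, lies outside the symbol rule but was measured by 45 probes. Of these, 18 were lower, 6 higher and 21 did not pass, with means from -0.80 to 0.79 and a median of -0.22. The shares over all probes were 25.9% lower and 31.4% higher.

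In complex III, the small subunits and the Rieske protein parted. Uqcr11 gave -1.22, -1.33 and -0.78 (mean -1.11 ± 0.29, adjusted p = 0.00334). The hinge protein Uqcrh gave -0.78, -1.21 and -0.74 (mean -0.91 ± 0.26), Uqcrq -0.59, -1.15 and -0.69 (mean -0.81 ± 0.30) and Uqcr10 -0.66, -0.74 and -0.65 (mean -0.68 ± 0.052). These 4 small subunits were lower on every array, while Uqcrb, which binds near ubiquinone, gave 0.39, -0.0085 and 0.084 and did not pass (adjusted p = 0.272). The Rieske iron-sulfur protein Uqcrfs1 had both probes higher, with 0.81, 0.68 and 0.62 and 0.56, 0.80 and 0.69 on arrays 1, 2 and 3 (means 0.70 ± 0.093 and 0.68 ± 0.12, adjusted p = 0.00352 and 0.00395). Its probes differed by less than their SDs. Of the paired core proteins, Uqcrc1 was lower, at -0.77, -0.69 and -0.43 (mean -0.63 ± 0.18, adjusted p = 0.00648). Uqcrc2 gave 0.40, 0.20 and 0.003 and did not pass (adjusted p = 0.163). Cyc1, the cytochrome subunit left out by the rule, was at 0.15 and did not pass either.

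In complex IV, cytochrome c oxidase, the nuclear subunits surround a catalytic core that is encoded in the mitochondrion. Of the 15 probes of subunits found in most tissues, 8 were lower (53.3%) and 4 higher (26.7%). Over all probes these shares were 25.9% and 31.4%. Cox7c had the lowest ratio, -1.50, -1.29 and -1.11 (mean -1.30 ± 0.20, a 2.46-fold difference, adjusted p = 0.00319). Cox6a1 gave -1.15, -1.34 and -1.02 on one probe and -1.54, -1.11 and -0.56 on the other. Cox6b1, which faces the intermembrane space, gave -1.09, -1.22 and -0.96 and -1.05, -1.04 and -0.63. In both genes every value was below -0.5 (adjusted p from 0.00319 to 0.00822). Cox4i1, a regulatory subunit that binds ATP, gave -0.34, -1.11 and -0.42, a call lost without array 2 (adjusted p = 0.0672) and without array 3 (0.0715). Cox6c, at -0.55 ± 0.26, was lower too, and lost the call without array 2 (0.0631).

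Other complex IV subunits went the opposite way. Cox7a2 gave 0.64, 1.07 and 0.93 (mean 0.88 ± 0.22, adjusted p = 0.00369). Cox5a, a matrix-side subunit, gave 0.62, 0.81 and 0.69 (mean 0.71 ± 0.097, adjusted p = 0.00354). Both were higher on every array, with no overlap with Cox7c, Cox6a1 or Cox6b1. Cox8a was at 0.26 ± 0.036, a call lost without array 2 (0.176) or array 3 (0.236). Cox7b gave -1.12, -0.96 and -0.72 on a lower probe and 0.22, 0.25 and 0.23 on one that just missed the threshold (adjusted p = 0.0586).

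Cox5b, the partner of Cox5a on the matrix side, was the least settled gene. Its 3 probes gave -2.39, -1.37 and 1.02, then -1.04, -0.97 and 0.009, then 0.27, 1.35 and 1.17 on arrays 1, 2 and 3. The first had the largest SD of all 96 probes (1.75), with array 3 on the other side of 0 from arrays 1 and 2. Of the 3 only the last passed (mean 0.93 ± 0.58, adjusted p = 0.0195), and it lost the call without array 3 (adjusted p = 0.0929), where the first and second were lower instead (both adjusted p = 0.0252).

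Isoforms with restricted expression could be set beside their common counterparts. In the Cox7a pair, the heart and skeletal muscle form Cox7a1 gave -0.57, -0.48 and -0.64 (mean -0.56 ± 0.081) while Cox7a2 was higher, so the pair had opposite signs on each array, although the call of Cox7a1 was lost without array 3 (0.0562). In the Cox6a pair both forms were below 0, the muscle form Cox6a2 at -0.39, -0.27 and -0.18, which passed in no fit on 2 arrays. Cox4i2, a form known from lung and from low oxygen, gave -0.75, -0.56 and -0.32 (mean -0.54 ± 0.22, adjusted p = 0.0123), close to Cox4i1. Cox8b, another muscle form, gave -0.33, 0.070 and 0.043 and did not pass (adjusted p = 0.605). Of the forms known from testis, Cox7b2 was higher at 0.66, 0.88 and 0.87 (mean 0.80 ± 0.13, adjusted p = 0.00327). The probes of Cox6b2 were at -0.20, which did not pass, and 0.44, a call lost without array 1 (0.0734) or array 3 (0.161). Cross-hybridization between related forms was not tested.

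In complex V, 5 of the 6 probes of the catalytic head were lower (83.3%), against 25.9% of all probes. Atp5b gave -1.31, -1.78 and -1.20 (mean -1.43 ± 0.31, a 2.69-fold difference, adjusted p = 0.00319). The central stalk subunit Atp5c1, the rotating axle, gave -1.05, -0.90 and -0.53 on one probe and -0.65, -1.11 and -0.62 on the other (means -0.83 ± 0.26 and -0.79 ± 0.28), and Atp5e and Atp5d, at the foot of that stalk, gave -1.26, -0.83 and -0.47 and -1.06, -0.52 and -0.29. All were below 0 on every array. Atp5a1, the alpha subunit that alternates with the beta subunit in the same ring, gave 0.22, 0.56 and 0.68 and was higher (mean 0.49 ± 0.24, adjusted p = 0.0207). Its values did not overlap with those of Atp5b, but its call was lost without array 2 (0.0732) and without array 3 (0.134).

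The genes of the c subunit, which encode the same mature protein of the membrane ring, gave 3 different results. Atp5g2 was lower on every array, at -1.16, -1.37 and -0.90 (mean -1.14 ± 0.23, adjusted p = 0.00319). Atp5g1 was near 0, at 0.053, -0.036 and -0.01 (adjusted p = 0.981). Atp5g3 was higher, at 0.67, 0.66 and 0.70 (mean 0.68 ± 0.018, adjusted p = 0.00338), and its SD was among the smallest of the set. The values of the 3 genes did not overlap on any array.

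In the peripheral stalk, which holds the head still, 1 of 5 probes passed (20%), against 57.3% of all probes. Atp5h gave -1.21, -1.41 and -1.08 (mean -1.23 ± 0.17, adjusted p = 0.00319). Atp5pb (0.16 ± 0.36), Atp5j (0.17 ± 0.12) and the oligomycin-sensitivity protein Atp5o (-0.35 ± 0.28 and 0.034 ± 0.057) did not pass, with adjusted p from 0.0677 to 0.749; without array 1 Atp5pb was higher (0.0211). Among the small membrane subunits, Atp5j2 gave -1.20, -1.30 and -0.71 (mean -1.07 ± 0.32), Atp5l -1.33, -0.93 and -0.53 (mean -0.93 ± 0.40) and Atp5mpl -0.58, -0.82 and -0.65 (mean -0.68 ± 0.12). All 3 were lower on every array. The probes of Atp5md, needed for dimers of the enzyme, were at -0.31 ± 0.36 and 0.24 ± 0.28 and did not pass, except without array 1 (adjusted p = 0.0105 and 0.0157).

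Genes with several probes allowed the values of a gene to be compared between its probes. Of the 71 genes, 21 had 2 or 3 probes (46 probes in all). In 10 of them the probe means had both signs, in 8 all were below 0 and in 3 all were above it. In 8 genes every probe passed with 1 sign: Cox6a1, Cox6b1, Atp5c1, Ndufc1 and Ndufa10 were lower, and Ndufb4, Ndufb8 and Uqcrfs1 higher. In 4 genes probes passed with opposite signs, Sdhc and the complex I genes Ndufa5, Ndufb2 and Ndufs4. Over all named genes, which include genes with 1 probe, 7.49% had both a lower and a higher probe. The same counts were not made over all genes with 2 or 3 probes, so these counts have no like background.

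Ndufa5 gave -1.53, -1.61 and -1.06 on one probe (mean -1.40 ± 0.30), against 0.47 and 0.54 on the others. Both of these higher values lost the call without array 3 (0.0852 and 0.0911), and the second also without array 2 (0.0777). Ndufb2 gave 1.09, 1.22 and 1.08 on one probe (mean 1.13 ± 0.079), against -0.80 and -0.42, both of which lost the call without array 3 (0.0652 and 0.0754), and the second also without array 2 (0.0709). Ndufs4, whose loss in mice gives a mitochondrial encephalopathy, gave 0.83, 0.99 and 0.77 on one probe (mean 0.86 ± 0.11). Its other probes were at -0.45, a call lost without array 3 (0.0717), and -0.69, which did not pass (adjusted p = 0.0572) except without array 1 (0.00267). The difference between the highest and the lowest probe of a gene had a median of 0.51 over the 21 genes. Over the 17 genes with exactly 2 probes, each pair entered in both orders, Pearson's r between probe means was 0.51, a description across genes. The sources used here do not say where a probe lies in its transcript.

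**Figure D3:**
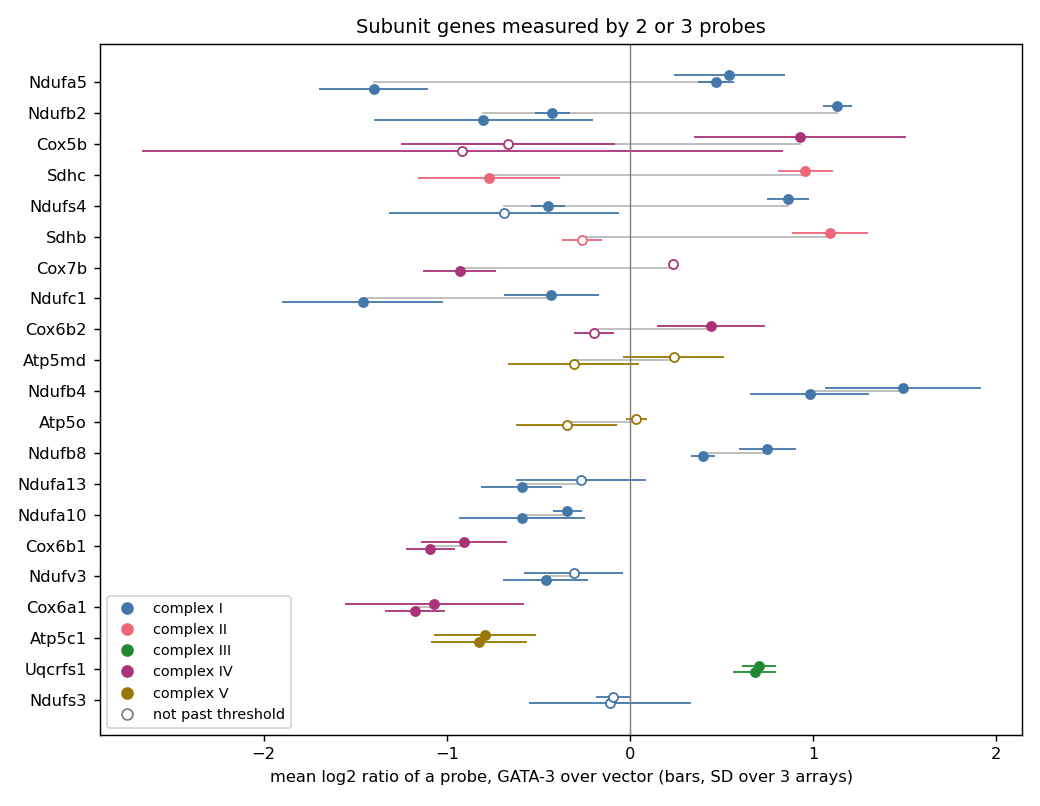
Mean log2 ratio (horizontal axis) of each probe of the 21 subunit genes with 2 or 3 probes, with bars for the SD over 3 arrays, colours for the complex and open symbols for probes that did not pass the threshold. Genes are sorted by the distance between their probes, which is largest for Ndufa5, at -1.40 against 0.54, and smallest for Ndufs3.

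Other genes of the pathway were taken from lists chosen with earlier results of these data known. Of 34 measured genes for assembly factors, which build the complexes without staying in them, 12 had a lower probe and 15 a higher one (4 of them both), beside 35.3% and 42.0% of all named genes. The median of their 51 probes was 0.13. Atpaf1, an assembly factor of the ATP synthase head, was higher on its first probe at 1.20 ± 0.13 and on its second at 0.54, a call lost without array 3 (0.0643). Ndufaf3, of complex I assembly, was higher on one probe at 1.02 ± 0.055, while the other, at -0.21, did not pass. Lyrm7, which inserts the Rieske protein, had probes at 1.19, 1.17, -1.24 and -0.27, and Tmem70, of ATP synthase assembly, at -1.39 and 0.93. Each of these passed, so Lyrm7 and Tmem70 had probes of opposite sign, although the last Lyrm7 probe passed in no fit on 2 arrays (adjusted p from 0.0764 to 0.199).

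Electron carriers and nucleotide exchange genes had a median of 0.067 over 27 probes of 18 genes, 8 with a lower and 9 with a higher probe (2 both). Of all named genes, 35.3% had a lower and 42.0% a higher probe. Cytochrome c (Cycs) gave 0.41, 0.75 and 0.77 (mean 0.64 ± 0.20), a call lost without array 3 (0.0571), and its testis form Cyct 0.95, 1.22 and 0.71 (mean 0.96 ± 0.26). Vdac3, an outer membrane channel, was at 1.22 ± 0.38, and the ubiquinone synthesis genes Coq5 and Coq3 at 0.67 ± 0.050 and 0.92 ± 0.35, with another Coq5 probe at -0.066 that did not pass. Other Coq genes went both ways. Coq8a had probes at 0.67 and -0.50, and Coq10b at 0.75 and -0.26, all past the threshold, while a further Coq10b probe (0.13) did not pass. Coq7 (-0.32) and a Coq6 probe (-0.34) were lower, while Coq4 (-0.20) and the other Coq6 probe (0.013) did not pass. Of these calls all but the higher Coq8a one were lost without array 3 (0.0533 to 0.24). The adenine nucleotide carrier Slc25a5 was lower, at -0.50 ± 0.31, but lost the call without array 1 (0.0567) and without array 2 (0.0944).

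In the tricarboxylic acid cycle list, without Sdha, 2 of 25 probes were lower and 9 higher, with a median of 0.040. Of all probes, 25.9% were lower and 31.4% higher. Pdhb, of pyruvate dehydrogenase, had both probes above 0, at 1.36 and 0.71. Dlat, of the same complex, was lower at -0.53, a call lost without array 2 (0.0529) and without array 3 (0.0803). Neither probe of Pdha1, also of this complex, passed (-0.29 and 0.0405). Isocitrate dehydrogenase Idh2 was at 0.90 ± 0.098, and Dlst, of the oxoglutarate dehydrogenase complex, at 0.76 ± 0.090 and, on a probe that lost the call without array 2 (0.0742) and array 3 (0.101), at 0.39. Ogdh, of that same complex, had one probe lower at -1.03 ± 0.24 and one at 0.999 ± 0.90 that missed the threshold (adjusted p = 0.0501). Glycolytic enzymes other than Gapdh, whose 30 probes had a median of -0.82, had 12 of 23 probes lower and 7 higher, with a median of -0.44. The same shares of all probes, 25.9% and 31.4%, stand beside these counts.

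Regulators of mitochondrial biogenesis counted 5 of 18 genes with a lower and 5 with a higher probe (1 both), beside 35.3% and 42.0% of all named genes. Their probes had a median of -0.14. The coactivator Ppargc1a gave 1.13, 0.83 and 1.06 (mean 1.01 ± 0.16, adjusted p = 0.00319), and Nrf1 gave 0.54, 0.53 and 0.60 (mean 0.56 ± 0.037), a call lost without array 3 (0.0521). The mitochondrial DNA-binding protein Ssbp1 had its probes at 1.06, 0.77 and 0.39, all higher, although the last lost the call without array 2 (0.0872) and without array 3 (0.0975). Mterf1a, a mitochondrial transcription terminator, was lower at -0.98 ± 0.24. The ETS factor subunit Gabpa had 6 probes. Those at 0.79 and 0.46 were higher, that at -0.46 was lower, and those at -0.66, -0.23 and -0.12 did not pass. The second lost the call without array 2 (0.117) or array 3 (0.0662), and the third without array 2 (0.111). Its partner Gabpb1 had 4 of 7 probes lower, from -0.50 to -0.31, none of which passed once array 3 was left out (0.0645 to 0.24).

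The subunits were set against families of other kinds. Cytosolic ribosomal protein genes, abundant in growing cells, had a median of -0.58 over 124 probes, with 71 lower and 20 higher. Mitochondrial ribosomal protein genes had a median of -0.24 over 105 probes, with 36 lower and 15 higher. Olfactory and vomeronasal receptor genes, known from sensory neurons, had a median of 0.63 over 1022 probes, with 52 lower and 693 higher. In the same order, the lower shares were 57.3%, 34.3% and 5.09%, against 25.9% of all probes. The higher shares were 16.1%, 14.3% and 67.8%, against 31.4%. On each array the oxidative phosphorylation median, from -0.56 to -0.25, lay between those of the 2 ribosomal families, -0.61 to -0.35 and -0.31 to -0.088. The part that signal strength has in these values was not tested, since the channel intensities were not used here.

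**Figure D4:**
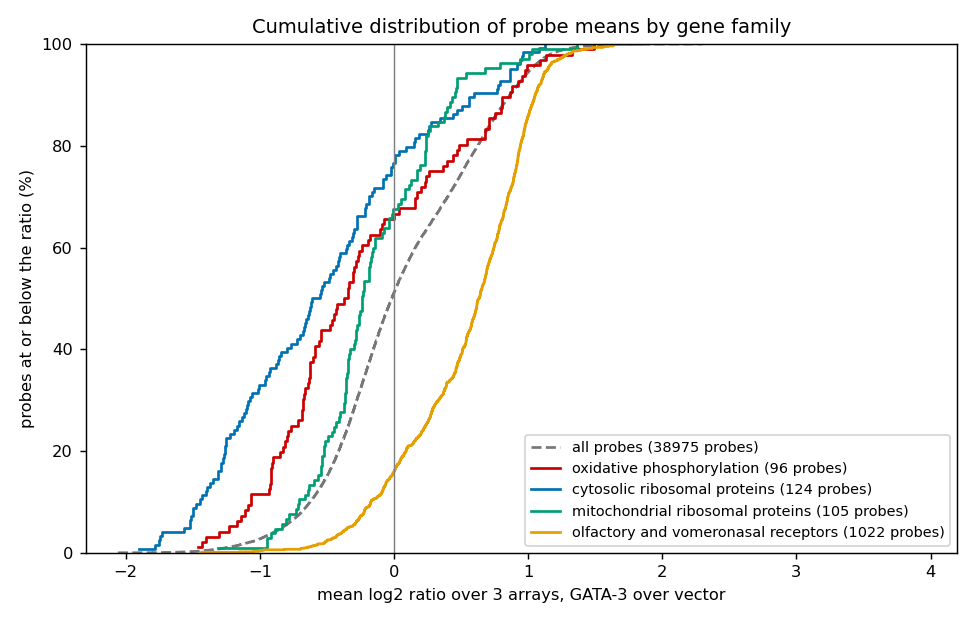
Share of probes (vertical axis, percent) at or below each mean log2 ratio (horizontal axis) for the 96 oxidative phosphorylation probes, all 38975 probes and 3 gene families. The oxidative phosphorylation curve lies between those of cytosolic and mitochondrial ribosomal proteins over much of its lower part and close to that of all probes at its upper end, and the receptor curve lies far to the right, with a median of 0.63.

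Markers of cell types rich in mitochondria did not share a direction. For the counts below, the shares of all probes are 25.9% lower and 31.4% higher. In skeletal muscle markers 8 of 17 probes were lower and 2 higher (medians -0.36, -0.36 and -0.26 on arrays 1, 2 and 3). In cardiac muscle markers 2 of 12 were lower and 5 higher (-0.038, 0.19 and 0.25). In brown adipocyte markers 3 of 12 were lower and 5 higher (0.32, 0.008 and 0.078), and the defining gene Ucp1, at -0.094 ± 0.19, did not pass. White adipocyte markers counted 1 lower and 7 higher of 14, fibroblast markers 9 and 2 of 14, and macrophage markers 5 and 3 of 14. Beside the 57.3% of all probes that passed, these 3 lists had 57.1%, 78.6% and 57.1%, and the skeletal muscle, cardiac muscle and brown adipocyte lists 58.8%, 58.3% and 66.7%. Of the 13 probes of mammary luminal markers 7 were lower and 2 higher (69.2% passed), with Krt18 at -1.24 ± 0.20 and Epcam at -0.033 ± 0.094. The higher probes were those of Cdh1 at 0.80 and of Elf5 at 0.59. Another Elf5 probe was lower at -0.42, but passed in no fit on 2 arrays. Ratios do not show whether a marker is present, and the part of these cell types in the subunit values was not tested.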

How the data were processed

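RNA of GATA-3 and empty-vector tumors was compared on 3 two-colour arrays. The values are log ratios that the authors deposited, read as log2; the sources used here do not say how they were scanned, corrected and normalized, nor the base and direction of the ratio. The number of arrays limits the precision.

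Probes were named from the platform annotation, in which 22972 of the 38975 tested probes had 1 symbol and 16003 had none; 1 row with a missing value was left out. Each array was centred on its median. For each probe, limma 3.58.1 (R 4.3.3) fitted an intercept and tested it against 0 after eBayes (two-sided, Benjamini-Hochberg adjustment over all 38975 probes, threshold 0.05). The fit was also run on simulated data with independent noise on each array. Such data hold no shared effect of dye, probe or control RNA, so the run does not bear on those effects. The members, lists and tests were chosen with earlier results of these data known. Any member could be named; full values went to extreme and core subunits, isoform families, genes with several probes, and list members of smallest p, of which the text gives some. Motifs were searched in the 250 bases before RefSeq starts. Alternatives concerned centring, scaling, missing values, averaging of probes, the variance model, thresholds, the sign, rows of high spread, membership, and each array left out.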

Additional observations from a re-analysis of the deposited data

How the results depend on the processing

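In the plain one-sample test, with 2 degrees of freedom and no variance shared across probes, 66 of all probes and 0 of the 96 subunit probes passed after adjustment, in either direction, and 55 of the 96 had an unadjusted p under 0.05. With each array left out in turn, all probes past the threshold numbered 11756 (without array 3) to 25268 (without array 1), the subunit probes 55 to 72, those lower 38 to 46 and those higher 17 to 26. Probes averaged per gene gave 15 higher genes of 71, and medians of 0.093 for complex II and -0.31 for complex IV. Complex IV ranged from -0.59 to -0.33 with 1 array left out. Adding Cyc1 moved complex III to -0.24, and leaving out genes whose probes had both signs, an alternative chosen after seeing the data, moved complex V to -0.79. Turning the sign gives by construction 25 lower and 47 higher probes and medians of 0.36 overall and 0.34, 0.18, 0.63, 0.55 and 0.62 for complexes I to V. Single probes near 0 that turned sign were Ndufs3 (-0.36 without array 1, where it passed with adjusted p = 0.022, and 0.048 without array 2), Cox8b (0.057 without array 1, -0.15 without array 2), Atp5g1 (-0.051 as deposited, -0.023 without array 1, 0.022 without array 2) and Atp5o (-0.0203 as deposited), and the others did not pass in these fits. Of the 72 subunit probes past the threshold, 52 kept sign and call in every setting run for single probes but the plain test, and 0 turned sign. Without centring, the calls of Ndufa4 (0.054), Cox8a (0.0818) and the higher Cox6b2 probe (0.0584) were lost. The other counts and medians moved by less than 1.5 times or less than the SD over arrays. The rule matched no symbol that names a gene other than a subunit, so the alternative without such symbols was not run. No paired analysis was possible because each array already holds the ratio of a tumor pair, in a single group.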
